A study of Homo sapiens with 64 samples.

Results

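The AP-1 transcription factors FOS, FOSB, FOSL1, FOSL2, JUN, JUNB, JUND, ATF3, BATF and BATF3 were followed in lymphoma cells given a BET bromodomain inhibitor and in untreated lymphoma lines. They were taken as every probe carrying one of these 10 gene symbols in the table of non-normalized signals, which gave 12 of 47231 probes. All 10 genes had a probe above background and were among the 13393 genes tested. ATF3 had 3 probes, of which 1 was detected on 36 of 42 arrays of the treated lines and the others on 0 of 42. On 22 arrays of a panel of untreated lines, the first was detected on 18 and the others on 2 and 0. The other members had 1 probe each.

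SUDHL2 and SUDHL6, established human lymphoma lines usually classed as activated B-cell type and germinal centre B-cell type diffuse large B-cell lymphoma, were each profiled with OTX015, with the vehicle DMSO and without treatment. OTX015 is a small molecule that displaces the BET proteins, readers of acetylated histones, from chromatin. OTX015 and DMSO arrays were taken at 1, 2 and 12 h and the not treated arrays carry no hour, giving 14 groups of 3 arrays. A panel of 22 untreated lymphoma lines had 1 array per line and gives basal levels. Each of the treated groups rests on a single cell line. The sources used here give no dose of OTX015. No label states that the 3 arrays of a group stem from cultures grown separately, and p-values then describe only how these arrays scatter, which may be technical.

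AP-1 is a dimer of basic leucine zipper proteins that binds the palindrome TGANTCA or, for dimers with ATF proteins, TGACGTCA. JUN proteins pair with each other or with FOS proteins, which cannot pair among themselves, and ATF3 and the BATF proteins pair with JUN proteins. FOS, FOSB, JUN and JUNB are immediate early genes, switched on within minutes by MAP kinase signals and off again soon after. In B cells, BATF joins a JUN protein and IRF4 or IRF8 on composite DNA sites.

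The 250 bases before the annotated start of members that changed early (FOS, FOSB, JUN), of JUND, of ATF3 and of BATF are printed because these genes moved together or apart in the treated cells. They come from RefSeq (GRCh38.p14), run 5′ to 3′ on the gene's strand and were found for 8 of 10 members. Capitals mark matches to TGACGT, TGACGTCA or TGACATCA on either strand (a TGACGTCA match also holds TGACGT), to TGANTCA on either strand, or to TATAAA on the gene's strand.
FOS, chr14:75278578-75278827, plus strand: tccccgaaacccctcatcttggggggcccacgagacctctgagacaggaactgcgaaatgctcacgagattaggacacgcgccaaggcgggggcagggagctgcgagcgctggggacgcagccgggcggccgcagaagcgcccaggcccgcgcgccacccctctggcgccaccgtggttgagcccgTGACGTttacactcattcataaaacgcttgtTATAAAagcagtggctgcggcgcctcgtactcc
FOSB, chr19:45467746-45467995, plus strand: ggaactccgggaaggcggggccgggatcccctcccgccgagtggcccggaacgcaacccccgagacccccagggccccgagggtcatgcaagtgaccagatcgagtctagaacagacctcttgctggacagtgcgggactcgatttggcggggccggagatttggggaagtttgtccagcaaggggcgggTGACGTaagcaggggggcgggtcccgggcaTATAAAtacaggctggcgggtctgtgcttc
JUN, chr1:58784048-58784297, minus strand: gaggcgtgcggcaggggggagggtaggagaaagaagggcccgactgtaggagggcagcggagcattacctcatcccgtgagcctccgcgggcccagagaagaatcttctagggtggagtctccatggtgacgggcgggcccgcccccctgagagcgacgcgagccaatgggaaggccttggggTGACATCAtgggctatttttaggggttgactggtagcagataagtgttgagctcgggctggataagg
JUND, chr19:18281623-18281872, minus strand: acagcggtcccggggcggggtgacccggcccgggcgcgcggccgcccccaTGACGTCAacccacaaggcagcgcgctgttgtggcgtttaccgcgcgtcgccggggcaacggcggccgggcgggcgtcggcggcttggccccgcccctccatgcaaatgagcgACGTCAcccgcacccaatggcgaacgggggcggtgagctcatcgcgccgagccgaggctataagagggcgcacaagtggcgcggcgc
ATF3, chr1:212565157-212565406, plus strand: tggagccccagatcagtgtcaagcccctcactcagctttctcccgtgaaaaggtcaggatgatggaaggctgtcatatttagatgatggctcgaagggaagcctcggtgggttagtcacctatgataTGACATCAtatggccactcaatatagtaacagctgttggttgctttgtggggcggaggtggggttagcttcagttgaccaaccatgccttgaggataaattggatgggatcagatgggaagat
BATF, chr14:75522219-75522468, plus strand: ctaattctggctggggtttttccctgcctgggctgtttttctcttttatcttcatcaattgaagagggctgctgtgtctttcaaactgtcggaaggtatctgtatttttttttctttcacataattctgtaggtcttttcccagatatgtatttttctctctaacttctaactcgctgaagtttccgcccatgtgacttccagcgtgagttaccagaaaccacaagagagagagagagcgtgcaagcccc

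The FOS and FOSB windows each held TGACGT, 64 and 60 bases before the start, and TATAAA closer to it. TGACGT is the core of the element through which CREB and ATF proteins are known to act on FOS. The FOSL2 window also held TGACGT, 66 bases before its start, and the JUNB window held TATAAA. The JUN window held TGACATCA, 67 bases before the start, a variant site at which JUN with ATF2 is known to act on its own gene. ATF3 was listed with 2 starts. The first, printed above, held TGACATCA 123 bases before it, and the second held TATAAA 230 bases before it. JUND held the full TGACGTCA 200 bases before its start and a second TGACGT, read on the opposite strand, at 87 bases. No window of the 8 genes held TGANTCA, and the BATF window held none of these letters. Over all 35116 windows of the same length in the table, 7.1% held TGACGT, 1.65% TGACGTCA, 2.37% TGACATCA, 6.57% TGANTCA and 6.8% TATAAA. A match is only a description of these letters.

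Signals were corrected for background, quantile normalized and put on the log2 scale, so every level below is a log2 intensity and every difference a log2 fold change. Levels of different probes are not compared with each other. Arrays of a group correlated at 0.982 to 0.995, and 34 to 42% of probes were detected on each array of the treated lines. Of 7 measured B-cell markers, 6 were detected on all arrays of both lines and PAX5 on none. No T and NK cell marker of 9 was detected on every array, CD3D being found on 18 of 21 SUDHL2 arrays and 0 of 21 SUDHL6 arrays. EPCAM was found on all 21 SUDHL2 arrays and 0 SUDHL6 arrays, and DCN on 17 and 1. Of 8 myeloid markers, FCGR3A was found on all arrays of both lines, and 4 were found on none in each line. CD14 was found on 20 SUDHL2 and 12 SUDHL6 arrays, and LYZ on 15 and 11. The panel array labelled Karpas-422 stood apart. Its median correlation with the other panel arrays was 0.83, against 0.883 or more for each of the others, and its deposited processed values resembled the signals of another line best. On its signals MS4A1 (5.14) and CD22 (5.15) were not detected and CD3D (10.82), NKG7 (11.57) and S100A9 (10.4) were high. CD79A (5.45) and CD79B (7.38) were detected but lay below every other line, CD74 (13.66) and HLA-DRA (13.98) lay above every other line, and CD3E, CD3G, CD8A and GNLY were not detected. CD4 (8.79) and KLRD1 (6.37) lay above every other line. Of the other myeloid markers, CSF1R (10.52) and S100A8 (8.68) lay above every other line. CD14 and CD163 were not detected, and LYZ, FCGR3A and ITGAM lay within the range of the other lines. Panel ranges and correlations are given with and without this array, and the cause was not tested. A lower level in these bulk samples cannot be told apart from fewer cells expressing the gene.

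With DMSO alone, JUN, JUND, FOSB and ATF3 stood above the not treated cells at 1 and 2 h in both lines, and FOS at 1 h in both and at 2 h in SUDHL6. In SUDHL2 at 1 h, 5 of 10 members rose and 1 fell against the not treated arrays, where 6.11% of all genes were called (limma adjusted p below 0.05, either direction). In SUDHL6 at 1 h, 5 rose and 0 fell, beside 1.78% of all genes. The same 5 genes, JUN, JUND, FOS, FOSB and ATF3, rose in both lines. JUNB did not pass, with -0.14 and -0.42 in SUDHL2 and 0.11 and -0.03 in SUDHL6 at 1 and 2 h (adjusted p 0.14 to 0.95). At 2 h 4 rose and 1 fell in SUDHL2 beside 13.9% of all genes, and 5 rose in SUDHL6 beside 11.7%. The not treated arrays carry no hour, so handling, DMSO and time cannot be told apart in this comparison.

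JUN, the main partner of the FOS proteins, had the largest of these rises. In SUDHL6 its levels were 8.72, 8.99 and 8.07 with DMSO at 1 h, against 5.47, 5.33 and 5.66 not treated, 1 of the not treated arrays being below detection. The DMSO arrays were all far above the not treated ones, and the difference was 3.11 ± 0.31 (SE), an 8.63-fold change with limma adjusted p = 2.1e-09. In SUDHL2 the levels were 10.05, 10.37 and 9.60 with DMSO at 1 h, against 7.85, 7.80 and 7.90 not treated. This was a rise of 2.16 ± 0.31 (adjusted p = 1.3e-05), again with no overlap. At 2 h the rise of JUN was 1.37 ± 0.31 in SUDHL2 (adjusted p = 0.0018) and 2.80 ± 0.31 in SUDHL6 (adjusted p = 1.1e-08).

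FOS and FOSB rose beside JUN. FOS in SUDHL6 reached 7.92, 8.23 and 7.92 with DMSO at 1 h, against 6.19, 5.95 and 6.04 not treated (1.96 ± 0.23, adjusted p = 1.3e-07). In SUDHL2 FOS was at 6.08, 6.25 and 6.08 with DMSO at 1 h, while its 3 not treated arrays, between 4.22 and 4.97, were below detection. FOS was therefore at least 1.74-fold higher there (adjusted p = 2.1e-05). FOSB in SUDHL6 was at 7.64, 7.90 and 7.73 with DMSO at 1 h, against 5.73, 6.0 and 5.91 not treated (1.88 ± 0.18, adjusted p = 8.1e-10). By 2 h FOS in SUDHL2 had a difference of 0.47 ± 0.23 (adjusted p = 0.19), with 1 of 3 DMSO arrays detected. FOSB in SUDHL2, detected on 1 of 3 not treated arrays, was still 0.98 ± 0.18 above the not treated cells (adjusted p = 0.00015).

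ATF3, a factor known to be induced by cell stress, had 10.72, 10.56 and 10.45 in SUDHL2 with DMSO at 1 h, against 8.63, 8.84 and 8.76 not treated. The groups were well apart, with a rise of 1.83 ± 0.21 (adjusted p = 1.1e-07), and in SUDHL6 it rose by 1.07 ± 0.21 (adjusted p = 0.0016). JUND, the JUN protein usually present in resting cells, rose at 1 h by 0.95 ± 0.16 in SUDHL2 and 1.06 ± 0.16 in SUDHL6, and at 2 h by 1.00 ± 0.16 and 1.75 ± 0.16 (adjusted p at most 0.00014). BATF3 in SUDHL2 fell, with 6.51, 6.56 and 6.48 with DMSO at 1 h against 7.11, 7.22 and 6.92 not treated (-0.57 ± 0.14, adjusted p = 0.0078). Its difference at 2 h was -0.67 ± 0.14 (adjusted p = 0.00064), beside 0.14 and -0.18 in SUDHL6 at 1 and 2 h (adjusted p 0.51 to 0.84). BATF did not pass, with -0.35 and -0.53 in SUDHL2 and 0.03 and 0.56 in SUDHL6 (adjusted p 0.075 to 0.98). The 1 h call of BATF3 in SUDHL2 was lost without not treated replicate 2 (-0.50, adjusted p = 0.064).

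By 12 h with DMSO most of the early factors no longer differed by the test from not treated cells. In SUDHL2 3 members rose and 0 fell, beside 22.9% of all genes, and in SUDHL6 1 rose and 1 fell, beside 16.9%. BATF, the lymphoid AP-1 factor, was at 12.56, 12.49 and 12.54 with DMSO at 12 h in SUDHL2, against 11.19, 11.33 and 11.09 not treated. All 3 DMSO arrays lay above the not treated ones, by 1.33 ± 0.21 (adjusted p = 4.5e-06). BATF3, its close relative, was higher by 0.95 ± 0.14 there (adjusted p = 1.3e-06), the opposite direction to 1 and 2 h. JUN had a difference of 0.82 ± 0.31 that did not pass (adjusted p = 0.054), and passed with slide as a block (1.02, adjusted p = 0.0039). JUNB rose by 0.51 ± 0.19 (adjusted p = 0.042), a call lost when any of 5 of the 6 arrays was left out (0.44 to 0.54). In SUDHL6 BATF was higher by 0.60 ± 0.21 (adjusted p = 0.04) with overlapping arrays, a call lost without any of 4 arrays (0.39 to 0.64) and when SUDHL6 was fitted alone (0.60, adjusted p = 0.14). FOS in SUDHL6 fell by 0.79 ± 0.23 (adjusted p = 0.013), with 1 of 3 DMSO arrays detected. That call was lost with the authors' processed values (-0.33, adjusted p = 0.068) and without any of 3 arrays (-0.67 to -0.73).

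**Figure D1:**
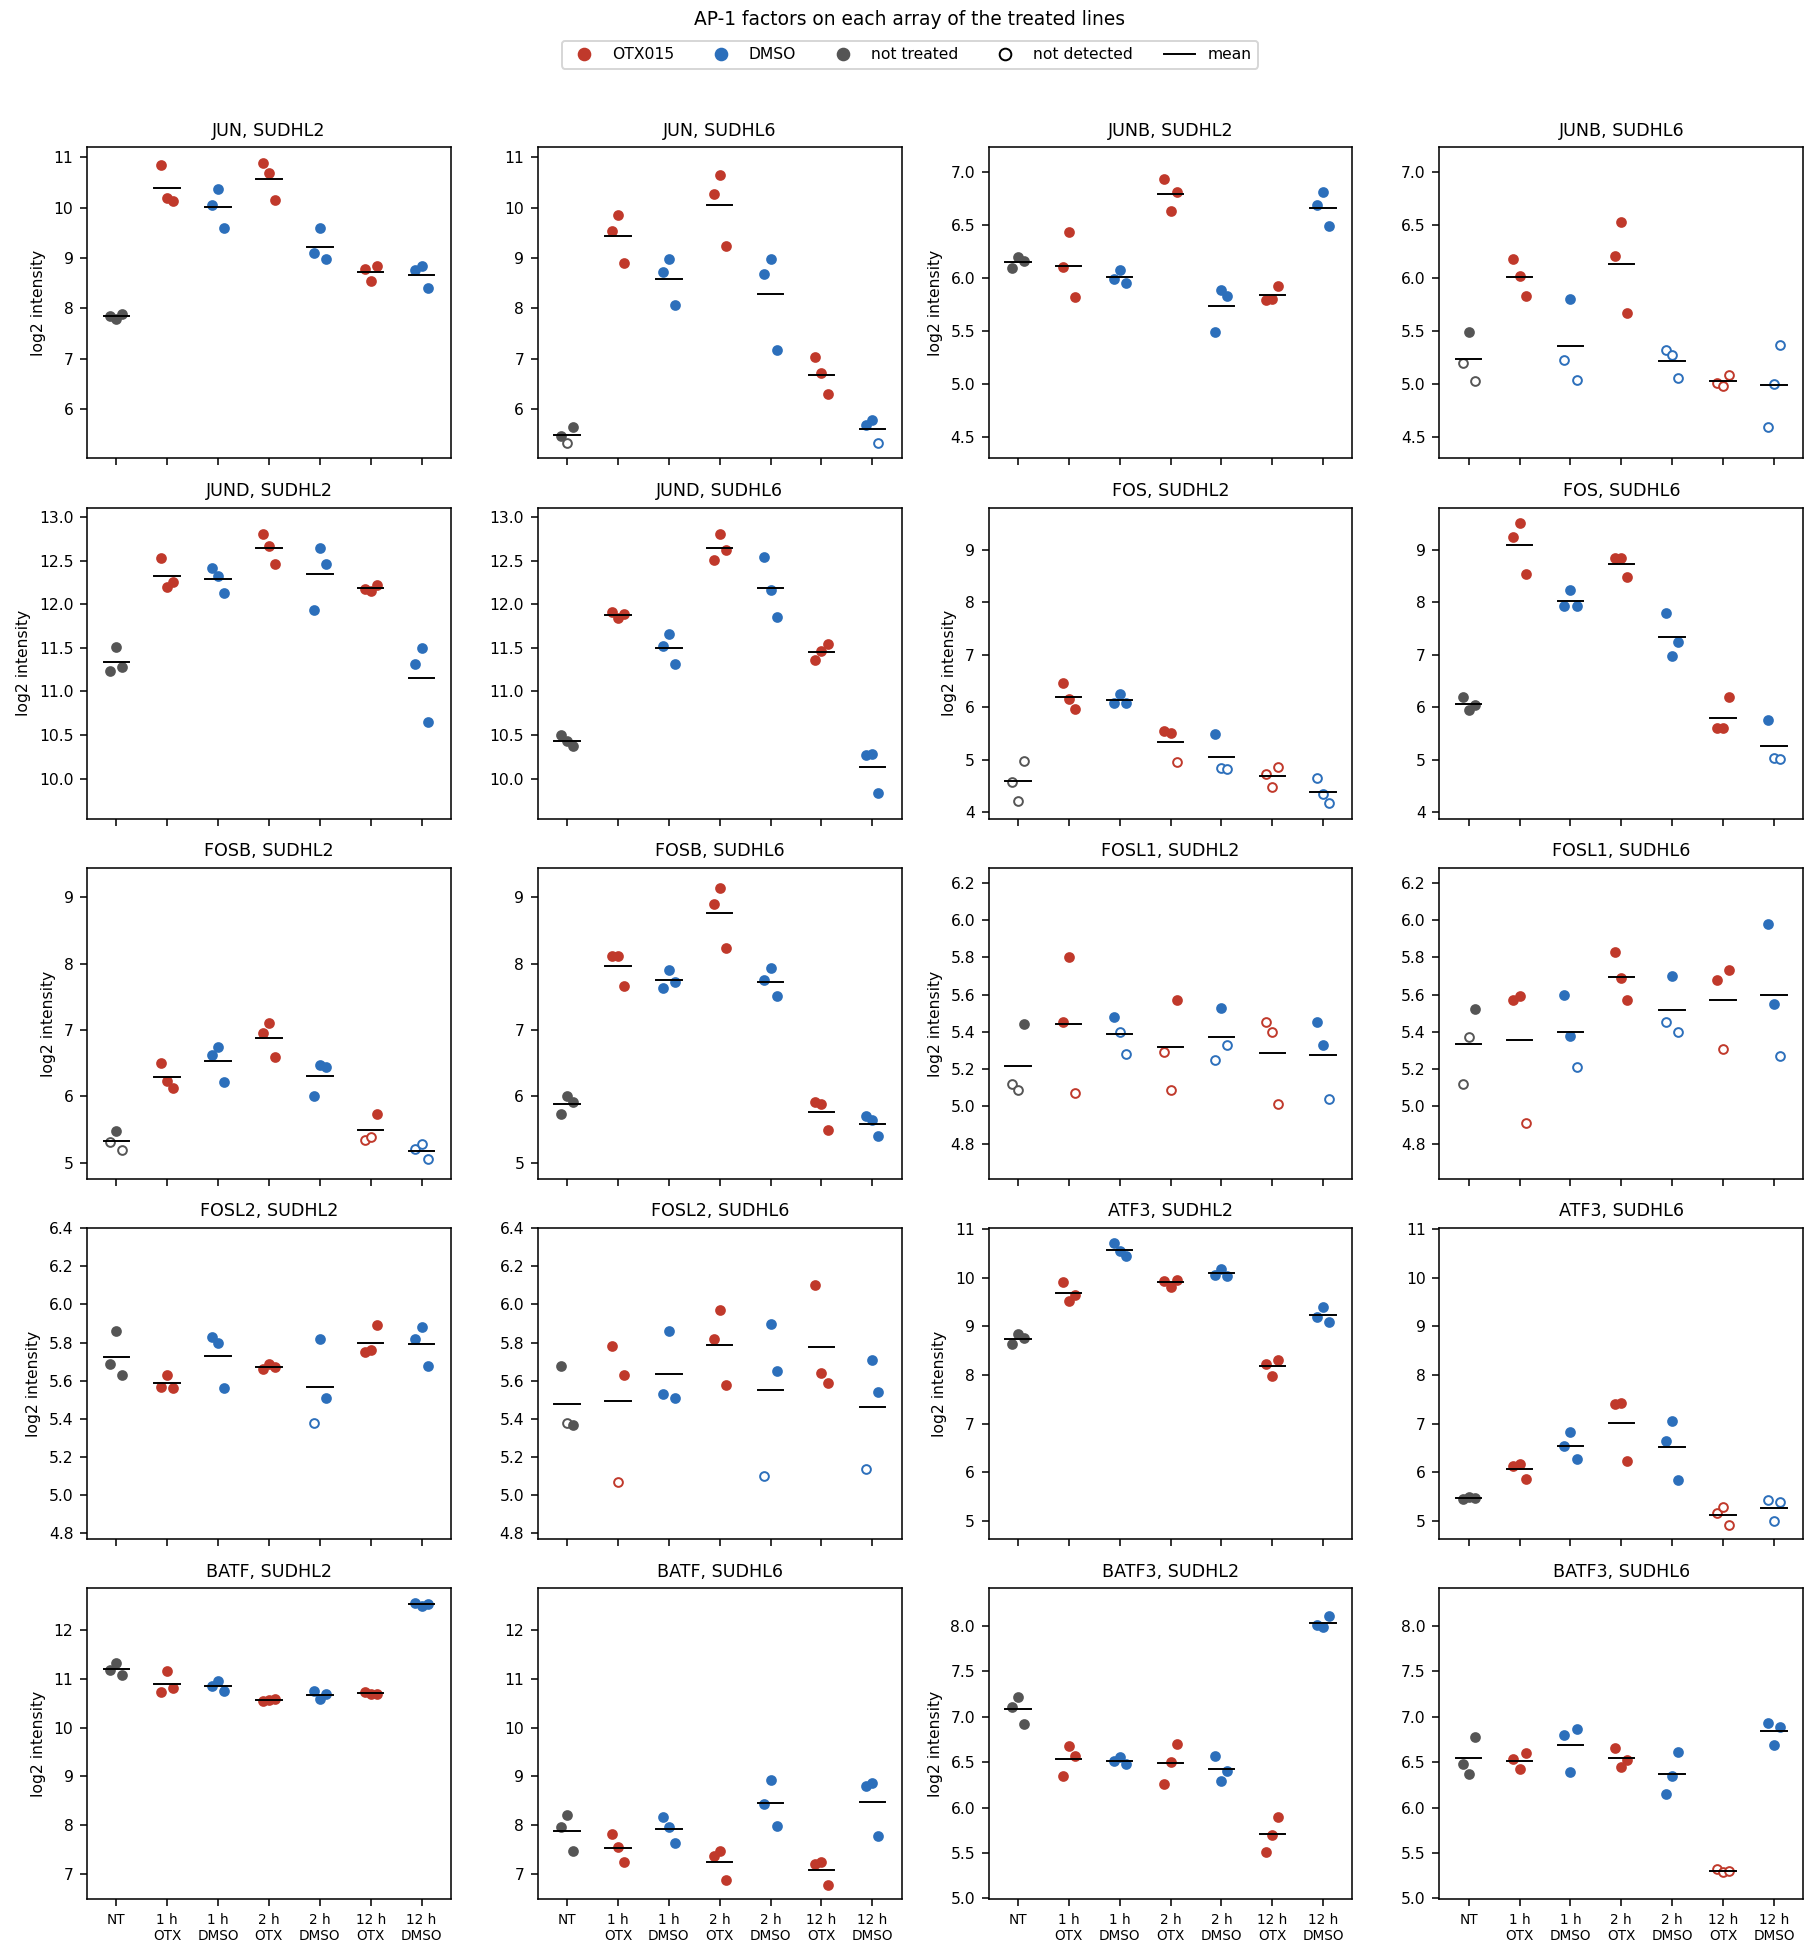
Log2 intensity of each AP-1 factor on every array of SUDHL2 and SUDHL6, from the not treated cells (NT) to 12 h, with OTX015 left of DMSO at each hour. Each point is 1 array, open points were not detected, and bars are means of 3 arrays. JUN and FOSB stood above the not treated arrays at 1 and 2 h in both lines, and BATF3 with OTX015 at 12 h had its lowest values in both lines.

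OTX015 was then set against DMSO at the same hour, which asks what the inhibitor adds to the vehicle. JUN and JUNB were higher with OTX015 at 2 h in both lines, and BATF and BATF3 were lower at 12 h in both. At 1 h in SUDHL2, 0 of 10 members passed limma's test, where 0.187% of all genes did (25 genes, with 573 at an unadjusted p below 0.05). ATF3 was nearest, with 9.92, 9.53 and 9.64 with OTX015 against 10.72, 10.56 and 10.45 with DMSO, a difference of -0.88 ± 0.21 (adjusted p = 0.069). Its arrays did not overlap, and the difference passed with slide as a block (-0.90, adjusted p = 0.023) and with the authors' processed values (-0.83, adjusted p = 0.00011). The other 9 members lay between -0.24 and 0.38. In SUDHL6 at 1 h 1 member rose and 0 fell, beside 0.806% of all genes. It was FOS, at 9.25, 9.50 and 8.53 with OTX015 against 7.92, 8.23 and 7.92 with DMSO. The 2.1-fold rise (1.07 ± 0.23, adjusted p = 0.0081) was lost when any of 4 of the 6 arrays was left out (0.87 to 1.02, adjusted p 0.053 to 0.16). The other 9 lay between -0.49 and 0.83, with JUN at 0.83 (adjusted p = 0.36) and JUNB at 0.66 (adjusted p = 0.1).

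At 2 h in SUDHL2, 2 members rose and 0 fell, beside 3.3% of all genes. JUN was at 10.89, 10.69 and 10.14 with OTX015, against 9.10, 9.59 and 8.98 with DMSO. Every OTX015 array lay above every DMSO array, and the rise was 2.55-fold (1.35 ± 0.31, adjusted p = 0.0061), a call lost without OTX015 replicate 1 (1.19, adjusted p = 0.062). JUNB, a JUN protein with weaker activating capacity, was at 6.93, 6.63 and 6.81 with OTX015, against 5.49, 5.89 and 5.83 with DMSO. It was 2.08-fold higher (1.05 ± 0.19, adjusted p = 0.00022), with no overlap. FOSB, at 0.57 ± 0.18, did not pass (adjusted p = 0.079), and the others lay between -0.19 and 0.30.

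In SUDHL6 at 2 h 4 members rose and 1 fell, beside 6.01% of all genes. JUN was at 10.27, 10.65 and 9.24 with OTX015, against 8.69, 8.98 and 7.18 with DMSO. The third array was the lowest in both groups, and OTX015 stood above DMSO throughout, by 1.77 ± 0.31 or 3.41-fold (adjusted p = 0.00012). FOS was at 8.84, 8.85 and 8.48 with OTX015, against 7.80, 6.97 and 7.25 with DMSO, a rise of 1.38 ± 0.23 (adjusted p = 5.2e-05). FOSB was at 8.90, 9.14 and 8.23 with OTX015, against 7.75, 7.93 and 7.51 with DMSO, a rise of 1.02 ± 0.18 (adjusted p = 0.00014). For both FOS genes the groups did not overlap. JUNB was detected on all 3 OTX015 arrays (6.21, 6.53 and 5.67) and on none with DMSO (5.32, 5.27 and 5.06), which makes it at least 1.6-fold higher (adjusted p = 0.00081).

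BATF was the member that fell in SUDHL6 at 2 h. Its levels were 7.37, 7.47 and 6.87 with OTX015, against 8.42, 8.93 and 7.97 with DMSO. The OTX015 arrays all lay lower, by 2.31-fold (-1.21 ± 0.21, adjusted p = 9.1e-05). In SUDHL2 at the same hour BATF was at 10.54, 10.56 and 10.59 with OTX015 and 10.75, 10.59 and 10.68 with DMSO (-0.11 ± 0.21, adjusted p = 0.93). The members not called in SUDHL6 lay between 0.17 and 0.51, with ATF3 at 0.51 (adjusted p = 0.19) and JUND at 0.46 (adjusted p = 0.089).

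At 12 h the picture differed from that at 2 h. In SUDHL2 1 member rose and 4 fell, beside 34.1% of all genes called, so that a count of 5 of 10 stands close to the background. BATF3, which in mouse is needed for a class of dendritic cells, was at 5.51, 5.70 and 5.90 with OTX015, against 8.01, 7.98 and 8.11 with DMSO. No member differed more between OTX015 and DMSO, with a 5.03-fold fall (-2.33 ± 0.14, adjusted p = 7.2e-17). BATF was at 10.73, 10.70 and 10.68 with OTX015, against 12.56, 12.49 and 12.54 with DMSO, a 3.54-fold fall (-1.82 ± 0.21, adjusted p = 2.9e-09). Within each group the arrays of both genes lay close together, and the groups were far apart. ATF3 was at 8.23, 7.99 and 8.32 with OTX015, against 9.20, 9.41 and 9.09 with DMSO, and fell by 1.05 ± 0.21 (adjusted p = 0.00011). JUNB was at 5.79, 5.80 and 5.92 with OTX015, against 6.69, 6.81 and 6.49 with DMSO (-0.83 ± 0.19, adjusted p = 0.00047). JUNB thus lay below DMSO at 12 h and above it at 2 h. The 5 members not called lay between 0.01 and 0.30.

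JUND was the member that rose in SUDHL2 at 12 h. It was at 12.18, 12.15 and 12.22 with OTX015, against 11.31, 11.50 and 10.65 with DMSO, a 2.05-fold rise (1.03 ± 0.16, adjusted p = 2.1e-06). The OTX015 arrays lay together above all DMSO arrays. Other cell type markers also differed in this comparison. Both T and NK markers tested fell (CD3D by 0.64, CD2 by 0.58), their 9 probes summing to 259 to 292 with OTX015 against 302 to 305 with DMSO on the linear scale, with CD3E, CD3G, CD8A, NKG7, GNLY and KLRD1 on no SUDHL2 array. EPCAM fell by 1.57, the 8 stromal and epithelial markers summing to 283 to 295 with OTX015 against 421 to 460 with DMSO, the B-cell marker MS4A1 fell by 1.76, and CD79B rose by 1.07. The 7 B-cell markers summed to 7868 to 8170 with OTX015, against 5662 to 6681 with DMSO. Their part in the results was not tested.

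In SUDHL6 at 12 h 2 members rose and 2 fell, beside 26.8% of all genes. BATF3 was detected on no OTX015 array (5.32, 5.29 and 5.30) and on all with DMSO (6.93, 6.69 and 6.89), and was at least 2.66-fold lower (adjusted p = 1.4e-11). BATF was at 7.19, 7.23 and 6.77 with OTX015, against 8.79, 8.87 and 7.78 with DMSO, a 2.67-fold fall (-1.41 ± 0.21, adjusted p = 1e-06). Both genes were lower on every OTX015 array. JUND was at 11.36, 11.46 and 11.54 with OTX015, against 10.27, 10.28 and 9.84 with DMSO, a 2.51-fold rise (1.33 ± 0.16, adjusted p = 2.4e-08). JUN was at 7.03, 6.73 and 6.30 with OTX015, against 5.70, 5.79 and 5.34 with DMSO, where 1 DMSO array was below detection (1.08 ± 0.31, adjusted p = 0.0077). The rise of JUN was the least secure of these calls. It was lost with the authors' processed values (0.53, adjusted p = 0.14), with no background correction (0.56, adjusted p = 0.13), with a normexp offset of 50 (0.73, adjusted p = 0.054) and without OTX015 replicate 1 (0.90, adjusted p = 0.057). The 6 members not called lay between -0.15 and 0.53, FOS being at 0.53 (adjusted p = 0.084). In SUDHL6 the B-cell markers CD79A, MS4A1 and CD22 fell by 0.63, 0.88 and 1.02, and the 7 markers summed to 25149 to 27281 with OTX015 against 28113 to 33801 with DMSO. The 9 T and NK markers summed to 236 to 286 with OTX015 and 248 to 263 with DMSO there, and the part of these markers was not tested.

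**Figure D2:**
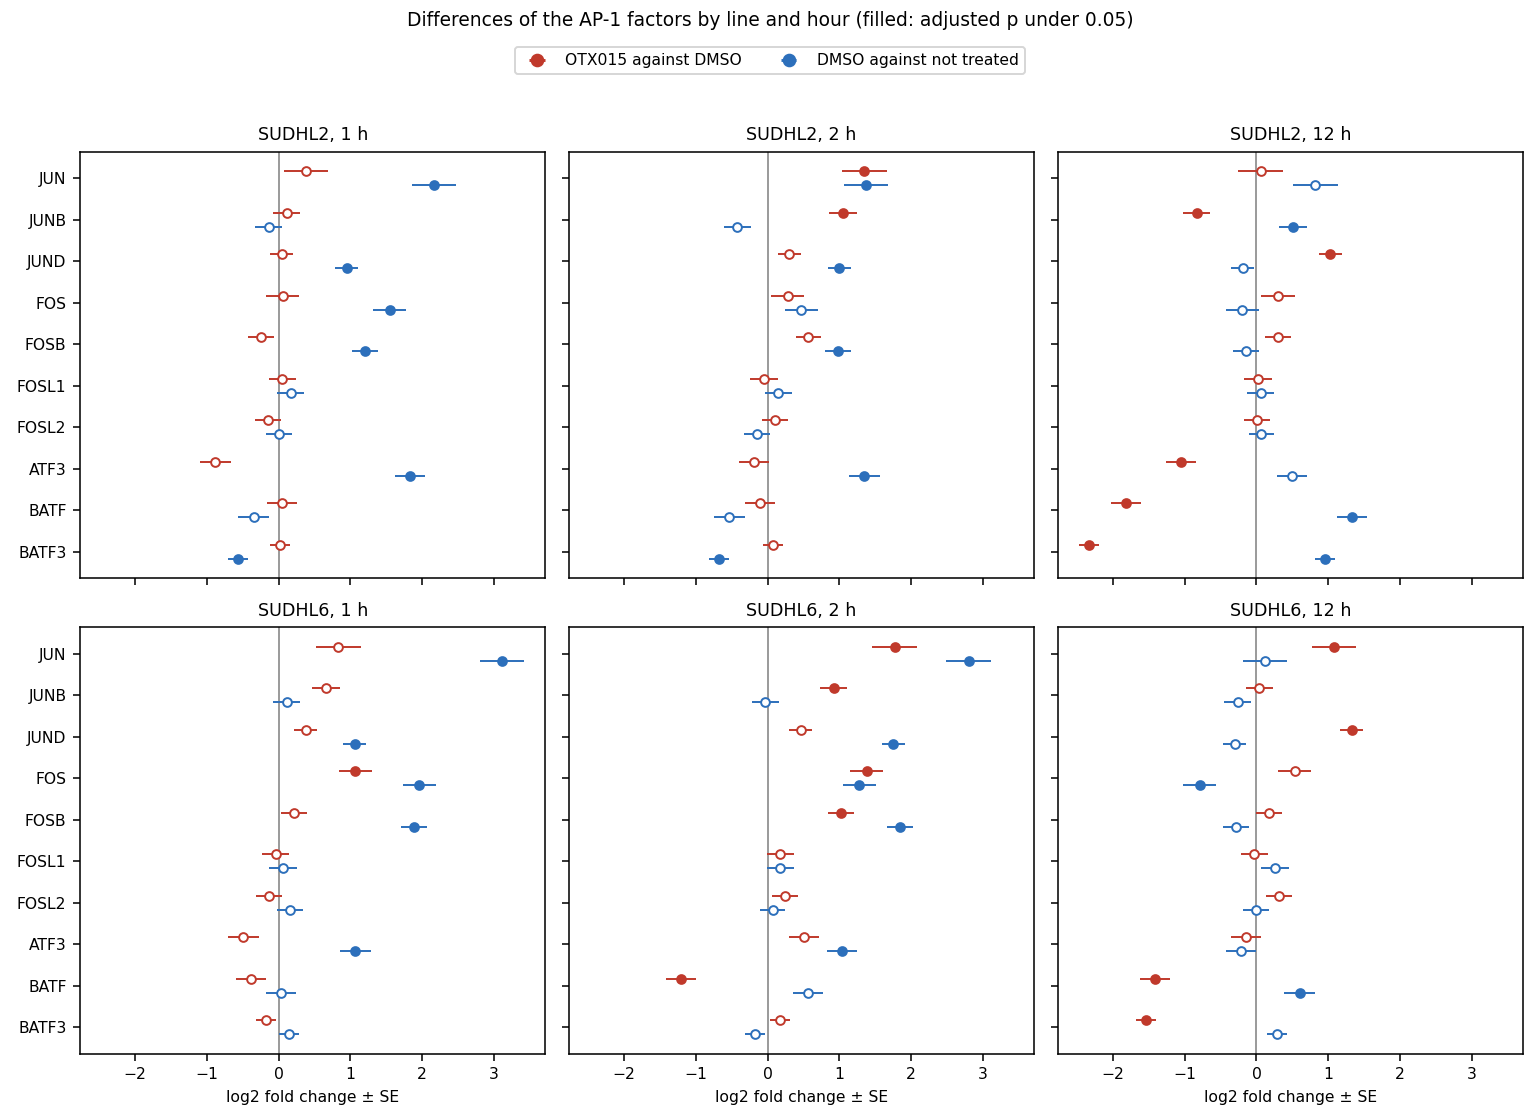
Log2 fold change ± SE (limma, 3 against 3 arrays) of each member for OTX015 against DMSO and DMSO against not treated, by line and hour. Filled points passed adjusted p below 0.05, and positive values mean higher with OTX015 or with DMSO. JUN and JUNB were above 0 for OTX015 at 2 h in both lines, and BATF and BATF3 were below 0 at 12 h in both.

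FOSL1 and FOSL2, the FOS-related genes often active in epithelial cells, were called in none of the 24 comparisons. FOSL1 was close to background, detected on 21 of 42 arrays with levels between 4.91 and 5.98, and FOSL2 was detected on 37 of 42 with levels between 5.07 and 6.10. Their OTX015 against DMSO differences lay between -0.15 and 0.31 (SE 0.18 to 0.19), and changes of that size were not detectable with 3 arrays.

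The arrays lay on several slides, and differences within a slide were described. Of the 17 calls of members for OTX015 against DMSO, arrays of both groups shared a slide in 34 slide and gene combinations. All 34 within-slide differences had the direction of the call. The groups did not overlap in any of the 17 calls, which fixed this direction in advance, so the count is no check of slide and only the sizes inform. For JUN at 2 h they were 1.35 and 1.16 in SUDHL2 and 1.77 and 1.16 in SUDHL6. For BATF3 at 12 h they were -2.39 and -2.22 in SUDHL2 and -1.63 and -1.49 in SUDHL6. For DMSO against not treated, 38 of 38 within-slide differences from 26 calls had the direction of the call. That too was fixed by groups that did not overlap, except for BATF in SUDHL6 at 12 h.

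OTX015 was also set against the not treated arrays. This comparison shares its arrays with the others and is given only as values side by side. In SUDHL2 5 members rose and 1 fell at 1 h (4.84% of all genes called), 6 rose and 2 fell at 2 h (12.2%), and 2 rose and 2 fell at 12 h (36.3%). In SUDHL6 5 rose and 0 fell at 1 h (2.06%), 6 rose and 1 fell at 2 h (10.7%), and 2 rose and 2 fell at 12 h (30.8%). JUN in SUDHL6 at 2 h was 4.56 ± 0.31 above the not treated cells (adjusted p = 1.6e-14), beside 2.80 ± 0.31 for DMSO. FOSB in SUDHL6 at 2 h was 2.87 ± 0.18 above them (adjusted p = 2e-15), beside 1.85 ± 0.18 for DMSO. ATF3 in SUDHL2 at 12 h was 0.56 ± 0.21 below the not treated cells (adjusted p = 0.034), beside 0.49 ± 0.21 above them for DMSO (adjusted p = 0.097). That fall was lost without any of 4 arrays (-0.47 to -0.59). BATF3 at 12 h was 1.38 ± 0.14 below them in SUDHL2 (adjusted p = 1.1e-10) and at least 2.17-fold below them in SUDHL6 (adjusted p = 1.9e-09). JUND at 12 h was 0.84 ± 0.16 above them in SUDHL2 (adjusted p = 5.3e-05) and 1.02 ± 0.16 in SUDHL6 (adjusted p = 3.1e-06). BATF at 12 h was -0.81 ± 0.21 in SUDHL6 (adjusted p = 0.0021). In SUDHL2 it was -0.50 ± 0.21 (adjusted p = 0.059), and passed with slide as a block (-0.52, adjusted p = 0.023), the authors' processed values (-0.48, adjusted p = 0.017), no background correction (-0.48, adjusted p = 0.023), an offset of 50 (-0.49, adjusted p = 0.036) and SUDHL2 fitted alone (-0.50, adjusted p = 0.00039). The rise of FOS in SUDHL2 at 2 h (0.75 ± 0.23, adjusted p = 0.027) and the fall of BATF in SUDHL6 at 2 h (-0.64 ± 0.21, adjusted p = 0.038) were, like other small changes of this comparison, not secure. They were lost with the authors' processed values (0.19, adjusted p = 0.37, and -0.43, adjusted p = 0.083).

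Whether the lines differed in their response to OTX015 was tested as SUDHL2 minus SUDHL6. At 1 h 0 of 10 members passed limma's test beside 0.0373% of all genes (598 at an unadjusted p below 0.05), and at 2 h 0 passed beside 0.642% (1058 at an unadjusted p below 0.05). FOS at 2 h had a difference of -1.10 ± 0.33 (adjusted p = 0.14), the responses being 0.28 in SUDHL2 and 1.38 in SUDHL6. In SUDHL2 FOS was detected on 2 of 3 OTX015 and 1 of 3 DMSO arrays at 2 h. Its small response there is thus not a measured absence of response. BATF at 2 h had 1.10 ± 0.30 (adjusted p = 0.076), the responses being -0.11 in SUDHL2 and -1.21 in SUDHL6. Both passed under other settings, FOS with the authors' processed values (-0.92, adjusted p = 0.0019) and BATF with slide as a block (1.28, adjusted p = 0.0036). At 12 h 3 members were lower in SUDHL2 and 0 higher, beside 12.3% of all genes. BATF3 had -0.79 ± 0.20 (adjusted p = 0.0044), from responses of -2.33 in SUDHL2 and -1.54 in SUDHL6, the second reaching the detection limit. JUNB had -0.87 ± 0.26 (adjusted p = 0.024), from -0.83 in SUDHL2 and 0.04 in SUDHL6, where it was below detection on all 6 arrays. ATF3 had -0.90 ± 0.30 (adjusted p = 0.042), from -1.05 in SUDHL2 and -0.15 in SUDHL6, where it too was below detection on all 6. The JUNB call was lost with 75th percentile scaling (-0.61, adjusted p = 0.11) and without any of 3 arrays (-0.67 to -0.84), and the ATF3 call with no filter on dim probes (-0.90, adjusted p = 0.051) and without any of 7 arrays (-0.76 to -0.93).

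The change of the OTX015 response between 2 and 12 h was tested in the same way. In SUDHL2 1 member was higher and 5 lower at 12 h, beside 20.6% of all genes, and in SUDHL6 1 was higher and 3 lower, beside 12.9%. BATF3 had -2.40 ± 0.20 in SUDHL2 (adjusted p = 3.4e-12) and -1.71 ± 0.20 in SUDHL6 (adjusted p = 2.9e-08), where it was below detection with OTX015 at 12 h. JUNB had -1.88 ± 0.26 in SUDHL2 (adjusted p = 8.5e-07) and -0.88 ± 0.26 in SUDHL6 (adjusted p = 0.02). In SUDHL6 JUNB was below detection with DMSO at 2 h and on all arrays at 12 h, and the call was lost with 75th percentile scaling (-0.67, adjusted p = 0.087) and with SUDHL6 fitted alone (-0.88, adjusted p = 0.068). JUND had 0.73 ± 0.23 in SUDHL2 (adjusted p = 0.018) and 0.86 ± 0.23 in SUDHL6 (adjusted p = 0.0081). BATF had -1.71 ± 0.30 in SUDHL2 (adjusted p = 2.8e-05) and -0.21 ± 0.30 in SUDHL6 (adjusted p = 0.73). JUN (-1.29 ± 0.44, adjusted p = 0.032) and ATF3 (-0.86 ± 0.30, adjusted p = 0.035) passed in SUDHL2 and FOSB (-0.84 ± 0.26, adjusted p = 0.024) in SUDHL6. Single arrays decided 5 of these calls. Without any of 7 arrays JUN (-1.13 to -1.24) and ATF3 (-0.77 to -0.89) in SUDHL2 no longer passed, without any of 3 JUND in SUDHL2 (0.48 to 0.64) and JUNB in SUDHL6 (-0.68 to -0.80), and without any of 5 FOSB in SUDHL6 (-0.65 to -0.78).

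Untreated, SUDHL2 stood above SUDHL6 for 6 members and below it for 2, beside 52.5% of all genes called. Line and slide largely coincided here. SUDHL2 replicate 1 and SUDHL6 replicate 3 shared slide 1, while the other not treated arrays lay on slide 2 for SUDHL2 and slide 4 for SUDHL6. A difference of lines cannot be told apart from one of slides there, and the slide block links the lines only through slide 1. BATF was at 11.19, 11.33 and 11.09 in SUDHL2, against 7.96, 8.21 and 7.46 in SUDHL6, a 10-fold difference (3.32 ± 0.21, adjusted p = 1.6e-17). ATF3 was at 8.63, 8.84 and 8.76 in SUDHL2, against 5.46, 5.50 and 5.48 in SUDHL6, a 9.6-fold difference (3.26 ± 0.21, adjusted p = 5.3e-17). JUN was 5.16-fold higher in SUDHL2 (2.37 ± 0.31, adjusted p = 1.9e-08). These 3 genes had no overlap between the lines. JUNB (0.91 ± 0.19), JUND (0.91 ± 0.16) and BATF3 (0.54 ± 0.14) were higher by smaller amounts (adjusted p at most 0.00095), and the call of BATF3 was lost with slide as a block (0.35, adjusted p = 0.068). FOS, detected on no SUDHL2 array and on all 3 of SUDHL6, was at least 1.65-fold lower in SUDHL2 (adjusted p = 6.4e-07). FOSB was lower by 0.55 ± 0.18 (adjusted p = 0.01), a call lost with the authors' processed values (-0.24, adjusted p = 0.077) and with slide as a block (-0.31, adjusted p = 0.23).

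Ordered by mean over the 14 groups, BATF was lowest in SUDHL6 with OTX015 at 12 h and highest in SUDHL2 with DMSO at 12 h, and BATF3 had the same extremes. JUN was lowest in SUDHL6 not treated and highest in SUDHL2 with OTX015 at 2 h. FOS was lowest in SUDHL2 with DMSO at 12 h and highest in SUDHL6 with OTX015 at 1 h, while JUND ran between DMSO at 12 h and OTX015 at 2 h, both in SUDHL6. Except for ATF3, most neighbours in the order of each gene lay within the spread of replicates. Of 13 gaps between neighbouring groups, 8 exceeded the pooled replicate SD for ATF3 (0.29), 6 for BATF (0.29) and 6 for FOS (0.31). The number was 5 for JUND (0.22), 4 for JUN (0.45), FOSB (0.24) and BATF3 (0.16), 2 for JUNB (0.24) and 0 for FOSL1 and FOSL2.

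The panel of 22 untreated lines spread most for BATF (7.18), ATF3 (5.27) and JUN (5.07), leaving aside BATF3, whose range rests on the array labelled Karpas-422. With 1 array per line, levels and their order are described without a test. BATF ran between 4.57 in WSUDLCL2 and 11.76 in OCI-Ly3, with a median of 6.28, and was detected in 16 of 22 lines. Next below OCI-Ly3 came OCI-Ly10 (11.66) and SU-DHL-2 (11.54), which did not differ beyond the replicate SD of the treated lines. ATF3 ran between 4.81 in OCI-Ly7 and 10.08 in OCI-Ly3, with a median of 6.67, followed from the top by SU-DHL-2 (9.85) and TMD8 (9.83). RCK8 was at 9.57 for ATF3, above OCI-Ly10 (9.09), and at 9.76 for BATF. HBL-1 was at 7.14 for ATF3 and 9.18 for BATF, U-2932 at 6.78 and 7.5, and RIVA at 6.69 and 9.42. Classes of lines were not compared here. JUN ran between 4.84 in OCI-Ly1 and 9.91 on the array labelled Karpas-422, with a median of 6.20, and RCK8 (9.69) and SU-DHL-2 (9.26) came next.

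The FOS genes had other lines at the top of the panel. FOS ran between 4.25 in OCI-Ly7 and 8.19 in SU-DHL-5, with a median of 5.82 and detection in 17 of 22 lines, and OCI-Ly10 (7.82) and HBL-1 (7.58) followed. FOSB ran between 5.33 in DoHH2 and 9.05 in HBL-1, with OCI-Ly10 (7.90) and OCI-Ly3 (7.83) next. JUND was detected in all lines, between 9.88 in SU-DHL-6 and 12.69 in HBL-1. JUNB, detected in 22 of 22 lines, ran between 5.37 in OCI-Ly19 and 8.62 on the array labelled Karpas-422, HBL-1 (7.89) being next. FOSL1 and FOSL2 spanned 0.91 and 0.90 over the panel, and 0 of their 21 gaps between neighbouring lines exceeded the replicate SD.

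BATF3 was at 11.91 on the array labelled Karpas-422 and at 7.98 or less elsewhere, the next being OCI-Ly10 (7.98) and OCI-Ly3 (7.78). Its panel range was 7.65 with that array and 3.71 without it. The range of JUNB was 3.25 with it and 2.53 without it, that of JUN 5.07 and 4.85, and that of FOSL1 0.91 and 0.87, while those of the other members did not change. In the deposited processed values the Karpas-422 column gave BATF3 as 6.78, within the 6.53 to 8.39 of the other lines, so the 2 tables disagree on this line.

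**Figure D3:**
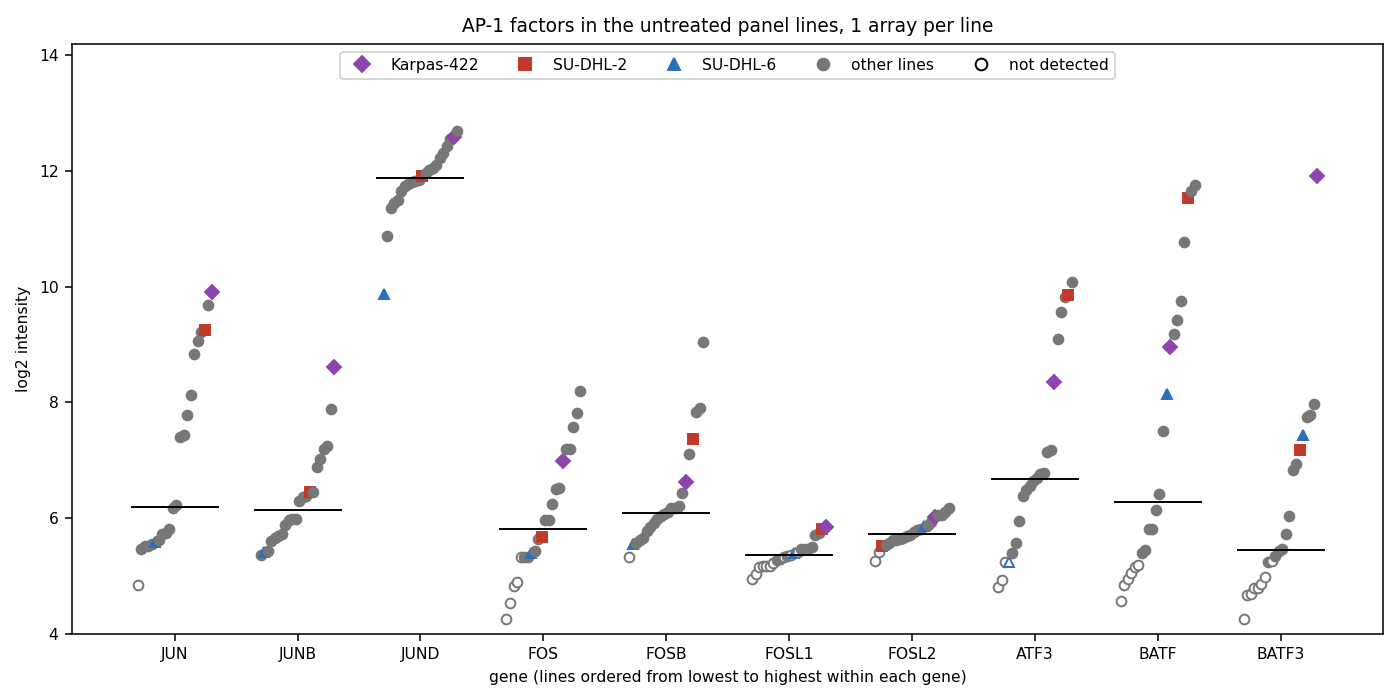
Log2 intensity of each member in the 22 untreated panel lines, 1 array per line, ordered from lowest to highest within each gene. The bar is the median and open symbols were not detected. BATF spans 4.57 to 11.76, and the array labelled Karpas-422 stands at 11.91 for BATF3.

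The panel arrays of SU-DHL-2 and SU-DHL-6 allow a second look at the untreated lines. Over all genes they correlated at 0.97 or more with the not treated arrays of their own line. BATF agreed within 0.34 in both, at 11.54 on the SU-DHL-2 panel array against a mean of 11.20 in SUDHL2 and 8.14 on the SU-DHL-6 panel array against 7.88 in SUDHL6. The early factors differed more in SU-DHL-2. FOSB was at 7.37 on the panel array against 5.19 to 5.48 on the not treated SUDHL2 arrays, JUN at 9.26 against 7.80 to 7.90, ATF3 at 9.85 against 8.63 to 8.84, and FOS at 5.67 against 4.22 to 4.97. In SU-DHL-6 JUN was at 5.59 on the panel array against 5.33 to 5.66, and FOS at 5.40 against 5.95 to 6.19. Between the SU-DHL-2 and SU-DHL-6 panel arrays, FOS (5.67 against 5.40) and FOSB (7.37 against 5.55) were higher and BATF3 (7.18 against 7.43) was lower in SU-DHL-2, the opposite order to the not treated lines for all 3 genes. These are single arrays and were not tested.

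Likeness between profiles was described by Pearson's r, with no test. Over the 42 arrays of the treated lines, with each line's mean subtracted, JUN and FOSB had r = 0.94, FOS and JUN 0.89, and FOS and FOSB 0.88. The genes most like FOS were EGR1 (0.89), JUN and FOSB, and EGR1 is itself an immediate early factor. Those most like ATF3 were ATF4 (0.89), UBALD2 (0.87) and KLF6 (0.83). BATF was closest to CYB5D1 (0.85), IL21R (0.83) and NOP16 (0.83), and BATF3 to ABCC4 (0.93), DDN (0.93) and SFXN4 (0.91). JUNB was closest to MIDN (0.74), EBF1 (0.72) and IER3 (0.71), and JUND to H2AX, JUN and RNF19B (0.86 each). FOSB and JUN shared EIF1 as a near neighbour (0.89 and 0.88), while no gene exceeded 0.60 for FOSL1 or FOSL2. BATF and BATF3 correlated at 0.70, and BATF and JUN at -0.28. Arrays share groups and slides, so these values restate the group patterns.

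Over the 22 panel arrays FOS was again closest to EGR1 (0.78, and 0.86 over the 21 arrays without Karpas-422, an alternative chosen after seeing the data). JUN was closest to STAT3 (0.87, and 0.88 without it), ATF3 to TICAM2 (0.91 both ways) and BATF to RAB29 (0.90 both ways). BATF and ATF3 had r = 0.85 both ways, JUN and ATF3 0.82 and 0.83 without it, and JUN and BATF 0.78 and 0.79 without it. The values of BATF3 moved more. Its nearest gene was IL2RB (0.92, and 0.84 without it), and its r with BATF was 0.66, and 0.84 without it, with JUNB 0.68 and 0.44, and with JUND 0.14 and -0.09. FOSB and JUNB had r = 0.72, and 0.86 without it.

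Other genes of the pathway were counted for OTX015 against DMSO in lists chosen with earlier results known. Their counts stand beside 0.187, 3.3 and 34.1% of all genes called in SUDHL2 at 1, 2 and 12 h, and 0.806, 6.01 and 26.8% in SUDHL6. Of 25 other basic leucine zipper genes, 19 were tested. In SUDHL2 0 were called at 1 h, 1 rose and 2 fell at 2 h and 2 rose and 2 fell at 12 h, and in SUDHL6 1 rose at 1 h, 2 rose and 1 fell at 2 h and 4 rose and 1 fell at 12 h. CEBPB, a factor of inflammatory gene control, rose in SUDHL6 at 2 h by 1.28 ± 0.14 (adjusted p = 7.3e-09), NFIL3 rose by 0.70 ± 0.11 (adjusted p = 3.9e-05), and MAFG, a partner of the NRF and BACH proteins, fell by 0.59 ± 0.13 (adjusted p = 0.0029). At 12 h in SUDHL6 CREB5 fell by 1.28 ± 0.14 (adjusted p = 1.7e-09) and BACH2, a B-cell repressor that binds AP-1 like sites, rose by 1.13 ± 0.14 (adjusted p = 3.1e-08). The median over the list was between -0.13 and 0.13 in all 6 comparisons, beside 0 to 0.03 for all genes.

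Of 25 kinases and factors that act upstream of AP-1, 21 were tested. At 1 and 2 h DUSP5, a phosphatase that acts on ERK, fell in both lines, by 0.82 ± 0.15 in SUDHL2 (adjusted p = 0.0032) and 0.98 ± 0.15 in SUDHL6 (adjusted p = 0.00014) at 1 h. DUSP1, which switches off JNK and p38, rose in SUDHL6 at 2 h by 1.42 ± 0.33 (adjusted p = 0.0037). At 12 h 8 rose and 2 fell in SUDHL2 (34.1% of all genes called, list median 0.23, all genes 0.02), among them DUSP5 with a rise of 1.04 ± 0.15. In SUDHL6 7 rose and 2 fell at 12 h (26.8% of all genes called, median 0.07), MAPK3, the kinase ERK1, falling by 1.10 ± 0.13 (adjusted p = 1.5e-08).

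Of 20 genes held in textbooks to be under AP-1 control, 14 were tested. At 2 h 0 of the 14 rose in either line, and 2 fell in SUDHL2 (median -0.27) and 0 in SUDHL6 (median -0.03). Of all 13393 genes, 111 rose and 331 fell in SUDHL2 at that hour, and 370 rose and 435 fell in SUDHL6. A count of 0 rising is thus close to the background. TNF, an inflammatory cytokine, fell at 1 h by 1.23 ± 0.16 in SUDHL2 (adjusted p = 4.7e-06) and 0.81 ± 0.16 in SUDHL6 (adjusted p = 0.0024). At 12 h 3 rose and 4 fell in SUDHL2 and 0 rose and 2 fell in SUDHL6. TNF then rose by 1.89 ± 0.16 in SUDHL2 (adjusted p = 6.9e-13) and fell by 1.29 ± 0.16 in SUDHL6 (adjusted p = 1.8e-08). CD69, a lymphocyte activation antigen, fell in SUDHL2 at 1 h by 2.21 ± 0.44 (adjusted p = 0.0084) and rose there at 12 h by 1.97 ± 0.44 (adjusted p = 0.00039). IL6 in SUDHL2 fell by 2.10 ± 0.14 at 12 h (adjusted p = 1.5e-15).

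Of 11 genes listed as partners of IRF4 or BATF or as holding their composite sites, 10 were tested. In SUDHL2 at 12 h 2 rose and 6 fell, beside 34.1% of all genes called, with a list median of -1.02 beside 0.02 for all genes. MYC fell by 3.46 ± 0.22 (adjusted p = 5e-16), IRF4, the DNA-binding partner of BATF, fell by 1.78 ± 0.20 (adjusted p = 1.3e-09), and the chemokine receptor gene CCR7 rose by 1.82 ± 0.45 (adjusted p = 0.0013). In SUDHL6 at 12 h 1 rose and 2 fell (26.8% of all genes called, median -0.11), with SPI1 falling by 1.37 ± 0.15 (adjusted p = 3.3e-09), SPIB falling by 1.23 ± 0.18 (adjusted p = 6.2e-07) and STAT3 rising by 0.87 ± 0.19 (adjusted p = 0.00042). At 2 h MYC and BCL6, the germinal centre repressor, fell in both lines, BCL6 by 1.41 ± 0.18 in SUDHL2 (adjusted p = 7.7e-07) and 0.99 ± 0.18 in SUDHL6 (adjusted p = 0.00017).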

How the data were processed

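RNA of 64 samples of cultured lines was measured on Illumina single-channel arrays on 7 slides, as biotin-labelled cRNA. The deposited table of non-normalized signals holds 1 linear intensity per probe and array, per the file headers, with no detection p-values. The authors' deposited processed table holds log2 values, with steps not given in the sources used here and therefore unknown scale and centring. Probes were named from GEO's platform annotation: 30113 carried 1 gene symbol, 8 several and 17110 none, and 0 symbols needed updating.

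Signals were background corrected in limma 3.58.1 (R 4.3.3) with normexp and an offset of 16. Quantile normalization used the 64 arrays together, and log2 was taken last. A probe was detected on an array where p was below 0.01 under a background made by mirroring the lower side of the array's background mode, and was kept if detected on 3 or more of 42 arrays (26033 probes). A gene was its detected probe with the highest mean. One model with 14 group means was fitted (lmFit, eBayes with trend, 28 residual degrees of freedom), and 24 contrasts were tested, 2-sided, with Benjamini-Hochberg adjustment over 13393 genes at 0.05. SE is limma's. Where a probe was detected on no array of a group, the fold is a lower bound against the higher of its value and the lowest detected value.

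All 10 members were tested in every comparison, and the text names those that were called and some that were not. From each list, the genes named are among the 3 with the largest change of those called. The script was tested on simulated data. The number of arrays limits the precision. Median signals per array ran between 88.5 and 115 for SUDHL2 and SUDHL6 and between 88.3 and 118 for panel lines. Replicate numbers were not fitted as a block, since not every same-numbered pair of arrays correlated above 0.1. Alternatives were another background correction, offset, scaling, filter, probe rule or block, the authors' values, 1 line at a time and leaving out each array. The members, lists and contrasts were chosen with earlier results of these data known.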

Additional observations from a re-analysis of the deposited data

Results flagged for a closer look

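Responses to OTX015 that differed between the lines, by the test of the difference itself, were those at 12 h of JUNB (SUDHL2 minus SUDHL6, -0.87), ATF3 (-0.90) and BATF3 (-0.79), all log2 differences. In SUDHL6 JUNB and ATF3 were below detection at 12 h with and without OTX015, so their difference there is not a measured absence of response, and BATF3 in SUDHL6 was below detection with OTX015 at 12 h.

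Responses that differed between 12 h and 2 h (12 h minus 2 h) in SUDHL2 were those of JUN (-1.29), JUNB (-1.88), JUND (0.73), ATF3 (-0.86), BATF (-1.71) and BATF3 (-2.40). In SUDHL6 they were those of FOSB (-0.84), JUNB (-0.88), JUND (0.86) and BATF3 (-1.71). JUNB in SUDHL6 was detected with OTX015 at 2 h, but not with DMSO at 2 h or with either at 12 h. BATF3 in SUDHL6 was below detection with OTX015 at 12 h, so its difference also rests partly on undetected signals.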

How the results depend on the processing

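Of 98 calls of members over the 24 comparisons, 85 held under every alternative other than leaving out an array and 73 under every alternative run, and none changed direction. For OTX015 against DMSO in SUDHL2 at 1 h, the count of members called was 1 (ATF3) in place of 0 with no background correction, a normexp offset of 50, the authors' processed values, the replicate block, the slide block or 1 line at a time. For DMSO against not treated at 12 h it was 5 in place of 3 in SUDHL2 (replicate block, 1 line at a time) and 1 in place of 2 in SUDHL6 (no background correction, 75th percentile scaling, the authors' values, 1 line at a time). For the difference between the lines it was 1 in place of 0 at 1 h (no background correction, the authors' values) and at 2 h (these, offset 50, 75th percentile scaling, replicate block, slide block). The cause was not tested. Leaving out 1 array gave counts of 1 to 3 for OTX015 against DMSO in SUDHL2 at 2 h and 0 to 2 in SUDHL6 at 1 h, 0 to 2 for DMSO against not treated in SUDHL6 at 12 h, 5 to 6 and 2 to 3 for OTX015 against not treated in SUDHL2 at 2 and 12 h, 0 to 1 and 1 to 3 for the lines' difference at 2 and 12 h, and 2 to 5 for 12 h minus 2 h in SUDHL6.

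Same-numbered replicates correlated above 0.1 in 15 of 63 pairs in SUDHL2 and 50 of 63 in SUDHL6. In these lines 8 of 21 and 18 of 21 arrays correlated best with their own number, in SUDHL6 a hint of pairing from the data and not the design. All SUDHL6 arrays of replicate 1 lay on slide 4 and all of replicate 3 on slide 1. Pairing by number and a shared slide therefore cannot be told apart there. The lowest r was -0.35 in SUDHL2 and -0.02 in SUDHL6 and the labels call the numbers experiments (exp) without saying what was shared, so the numbers were not taken as pairs. With the replicate block no call of a member was lost. Calls gained for OTX015 against DMSO were ATF3 in SUDHL2 at 1 h (-0.88, adjusted p = 0.0075), FOSB in SUDHL2 at 2 h (0.57, 0.019) and JUND in SUDHL6 at 2 h (0.46, 0.05). For DMSO against not treated they were BATF in SUDHL2 (-0.53, 0.0017) and SUDHL6 (0.56, 0.00094) at 2 h and JUN (0.82, 0.0049) and ATF3 (0.49, 0.039) in SUDHL2 at 12 h. The others were BATF for OTX015 against not treated in SUDHL2 at 12 h (-0.50, 0.001) and, for the lines' difference, BATF at 2 h (1.10, 0.00012) and JUN at 12 h (-1.01, 0.023). The block could not be fitted for the untreated lines' difference, since it lies within a line. With it, genes called for OTX015 against DMSO in SUDHL2 at 1 h numbered 47 in place of 25. Genes called for OTX015 against not treated in SUDHL2 at 1 h numbered 988 in place of 648. For the difference between the lines, the block gave 20 in place of 5 at 1 h and 147 in place of 86 at 2 h. At 1 h that count was 11 with no background correction, 8 with offset 50, 12 with the authors' values and 9 with the mean of probes, and at 2 h it was 134 with no background correction and 142 with the authors' values. One line at a time gave 59 genes in place of 108 in SUDHL6 at 1 h. Leaving out 1 array moved counts of genes by over 1.5 times for OTX015 against DMSO in SUDHL2 at 1 h (15 to 16 in place of 25, without OTX015 1 or DMSO 1 or 2) and 2 h (290 in place of 442, without OTX015 1) and in SUDHL6 at 1 h (64 to 67 in place of 108, without OTX015 1 or 2). For DMSO against not treated at 1 h it gave 445 to 540 in place of 818 in SUDHL2 (without DMSO 1 or any not treated array) and 153 to 157 in place of 239 in SUDHL6 (without not treated 1 or 2). For OTX015 against not treated in SUDHL2 it gave 316 to 378 in place of 648 at 1 h (without OTX015 2 or 3 or any not treated array) and 1021 in place of 1630 at 2 h (without not treated 3), and for the lines' difference 3 in place of 5 at 1 h (without any of 5 arrays).

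Scaling to the 75th percentile moved the median of all genes by over 0.1 in 10 of 24 comparisons (-0.19 to 0.22). In SUDHL2 at 12 h it moved by 0.19, with BATF3 at -2.22, BATF at -1.59 and JUND at 1.08, and FOS (0.72, adjusted p = 0.019) and FOSB (0.57, adjusted p = 0.025) passed limma's test. Panel ranges with the authors' values were 2.02 for FOS, 2.4 for FOSB, 0.42 for FOSL1, 0.47 for FOSL2, 3.14 for JUN, 1.47 for JUNB, 3.34 for JUND, 3.5 for ATF3, 5.12 for BATF and 1.86 for BATF3. Without the array labelled Karpas-422, they were 2.53 for JUNB and 3.71 for BATF3 in the signals. Signal over background limits FOSL1, FOS in SUDHL2 and JUNB and ATF3 in SUDHL6. It also limits FOSB in SUDHL2, detected on 1 of 3 not treated arrays and 0 of 3 with DMSO at 12 h. JUN in SUDHL6 was detected on 2 of 3 not treated arrays. In SUDHL2, signals were 102, 126 and 115 for BATF3 with OTX015 at 12 h, and 119, 131 and 122 for JUNB with DMSO at 2 h. Both stood little above array medians of 88.5 to 115.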
